A study of Mus musculus with 18 samples.

Results

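The 40 genes described here encode proteins that carry a cell through mitosis: kinases that start it, the complexes that hold chromosomes to the spindle, motors that move them, and the machinery that cleaves the cell in the final step. They were chosen by gene symbol, and each of the 40 was found in both expression tables, which list 33235 genes. In the adult liver most hepatocytes rest outside the cell cycle, and these genes are transcribed mainly from S phase to mitosis. Many of them are regulated together. In resting cells the DREAM repressor complex sits on their promoters at an element called the CHR, and in dividing cells the MuvB core of that complex joins B-Myb and Foxm1 to activate them. Mdm2 is the ubiquitin ligase that marks p53 for destruction. When p53 is active it induces Cdkn1a (p21), an inhibitor of cyclin-dependent kinases that favours the repressive form of DREAM.

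RNA was sequenced from livers of wild-type mice given 1 of 2 antisense oligonucleotides (ASO) joined to GalNAc, a sugar that hepatocytes take up through the asialoglycoprotein receptor. One ASO was a control (GalNAc-conASO) and the other was directed at Mdm2 (GalNAc-Mdm2ASO). Mice were on a diet labelled HFHC or on one labelled CDAHFD, so that all 4 groups received a GalNAc-linked ASO and 1 of these diets, and no group without an ASO was analysed here. Strain, age, sex and length of treatment are not given in the sources used here. The HFHC table holds control ASO replicates 1, 2, 4 and 5 and Mdm2 ASO replicates 6, 7, 9 and 10, and the CDAHFD table holds control ASO replicates 1 to 5 and Mdm2 ASO replicates 6 to 10. Replicates 6 and 7 on HFHC carry identical values for every gene and were counted as 1 library (replicate 6-7), which leaves 18 samples as 17 libraries, with 4 against 3 on HFHC and 5 against 5 on CDAHFD. The labels do not say that each sample is a separate animal, and p-values therefore measure the spread between these samples.

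The libraries held 17770748 to 18798144 gene-assigned reads on HFHC and 22376178 to 31453055 on CDAHFD. Mdm2 itself was lower in the Mdm2 ASO libraries on both diets: it fell from 945 ± 25.6 (SD, n = 4) to 362 ± 58.2 (SD, n = 3) normalized counts on HFHC and from 1565 ± 87.7 (SD, n = 5) to 647 ± 124 (SD, n = 5) on CDAHFD (limma, adjusted p = 1.1e-05 and 3.07e-05). The hepatocyte markers were abundant in every library and none of the 11 tested passed the test on either diet. A few libraries stood apart in the mitosis genes. On HFHC, control ASO replicate 1 had the highest value of its group for 38 of the 40 genes, and on CDAHFD control ASO replicate 4 was the highest of its group for 30 genes and control ASO replicate 5 the lowest for 30. Among the CDAHFD Mdm2 ASO libraries, replicate 8 was the lowest for 28 genes. For counts among the 40 genes below, a library is named where leaving it out moved the count by more than 1.5 times. Counts of other gene lists also moved with some libraries that are not named.

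On HFHC the Mdm2 ASO went with higher levels of mitosis genes, and on CDAHFD with lower levels. On HFHC, 20 of the 40 rose with the Mdm2 ASO and 0 fell, against a background of 16.8% of the 17441 genes tested called higher and 13.8% called lower (limma, Benjamini-Hochberg adjusted p under 0.05 over all genes tested). The log2 fold change, Mdm2 ASO over control ASO, was above 0 for 39 of the 40 genes, with a median of 0.79 against -0.006 for all genes tested, and ranged from -0.05 to 1.98. Values did not overlap between the groups for 20 of the 40 genes, all of them higher in the Mdm2 ASO libraries, where 20.7% of all genes tested were separated in that direction and 18% in the other. Without control ASO replicate 1, 28 of the 40 genes rose, and without Mdm2 ASO replicate 9, 13 did. In the same libraries 11 of 12 neutrophil and monocyte markers and 11 of 12 red cell and erythroid precursor markers also rose.

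On CDAHFD, 21 of the 40 genes fell with the Mdm2 ASO and 1, Gtse1, rose, against 6.86% of the 16803 genes tested called lower and 6.12% called higher. The log2 fold change was below 0 for 38 of the 40 genes, with a median of -1.19 against -0.002 for all genes tested, and ranged from -2.25 for Nuf2 to 1.48 for Gtse1. The groups did not overlap for 12 genes that were lower and 1 that was higher, compared with 5.62% and 4.95% of all genes tested. The number that fell was 14 without control ASO replicate 4, 16 without Mdm2 ASO replicate 8 and 27 without control ASO replicate 5. All 40 genes passed the filter on low values in both tables. In bulk liver RNA, fewer dividing cells and less of these RNAs per cell cannot be told apart.

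A test of the difference between the diets, the CDAHFD effect minus the HFHC effect, called 35 of the 40 genes lower and 0 higher, where 13.6% of the 16333 genes tested in both tables were called lower and 9.83% higher. The median difference was -2.20 on the log2 scale. The 5 genes with no called difference were Cenpa, Cenpf, Spc25, Ccnf and Gtse1. Of the 40 genes, 6 rose on HFHC and fell on CDAHFD: Aurkb, Cenpe, Ckap2l, Racgap1, Mki67 and Foxm1. That combination was met by 0.876% of the 16333 genes. Only Gtse1 among the 40 rose on both diets, and 1.09% of the 16333 genes did so. The number called lower was lowest, at 30, without HFHC Mdm2 ASO replicate 6-7. It was 31 without HFHC control ASO replicate 4 or Mdm2 ASO replicate 9, and 36 without HFHC control ASO replicate 1. It was 32 without CDAHFD control ASO replicate 4 or Mdm2 ASO replicate 8, and 37 without CDAHFD control ASO replicate 5. The difference kept its call in all 26 other settings tried for 26 of the 35 genes. With single libraries left out, the calls of Plk1, Birc5 and Ttk ended in most cases. The call of Aurka ended without HFHC Mdm2 ASO replicate 6-7, that of Pbk without HFHC control ASO replicate 4 or Mdm2 ASO replicate 6-7, and that of Kif2c without HFHC Mdm2 ASO replicate 9. Levels are not compared between the diets, because the authors normalized the 2 tables separately.

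**Figure D1:**
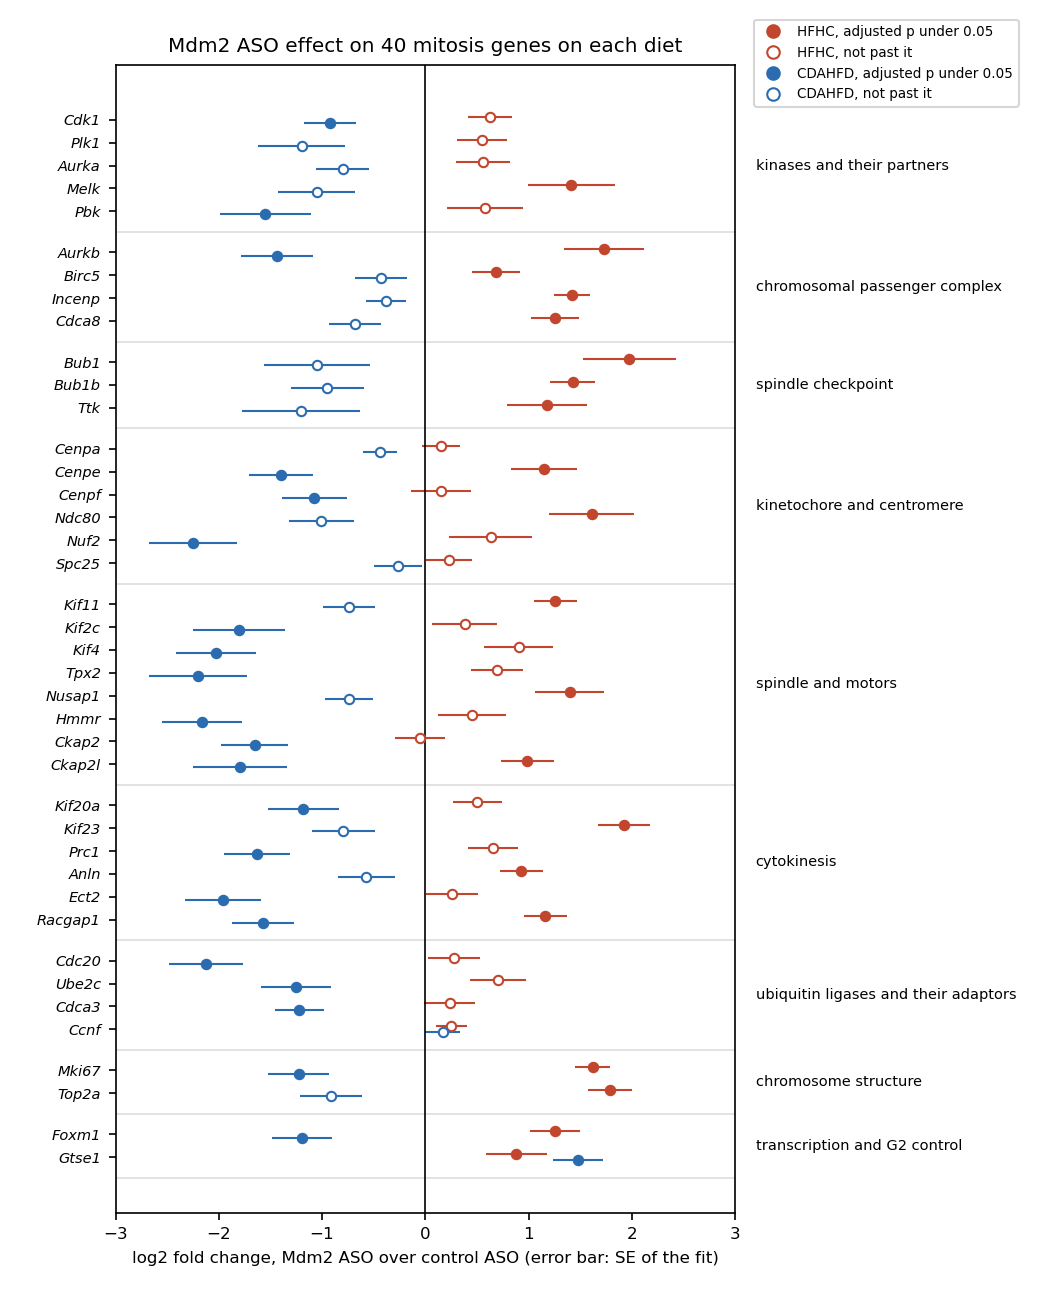
Log2 fold change of each of the 40 mitosis genes (horizontal axis, Mdm2 ASO over control ASO, points with the SE of the fit), on HFHC in red and on CDAHFD in blue, grouped by role, with filled points for adjusted p under 0.05. On HFHC 39 of the 40 points lie above 0, and on CDAHFD 38 of the 40 lie below it, with Gtse1 and Ccnf to the right.

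**Figure D2:**
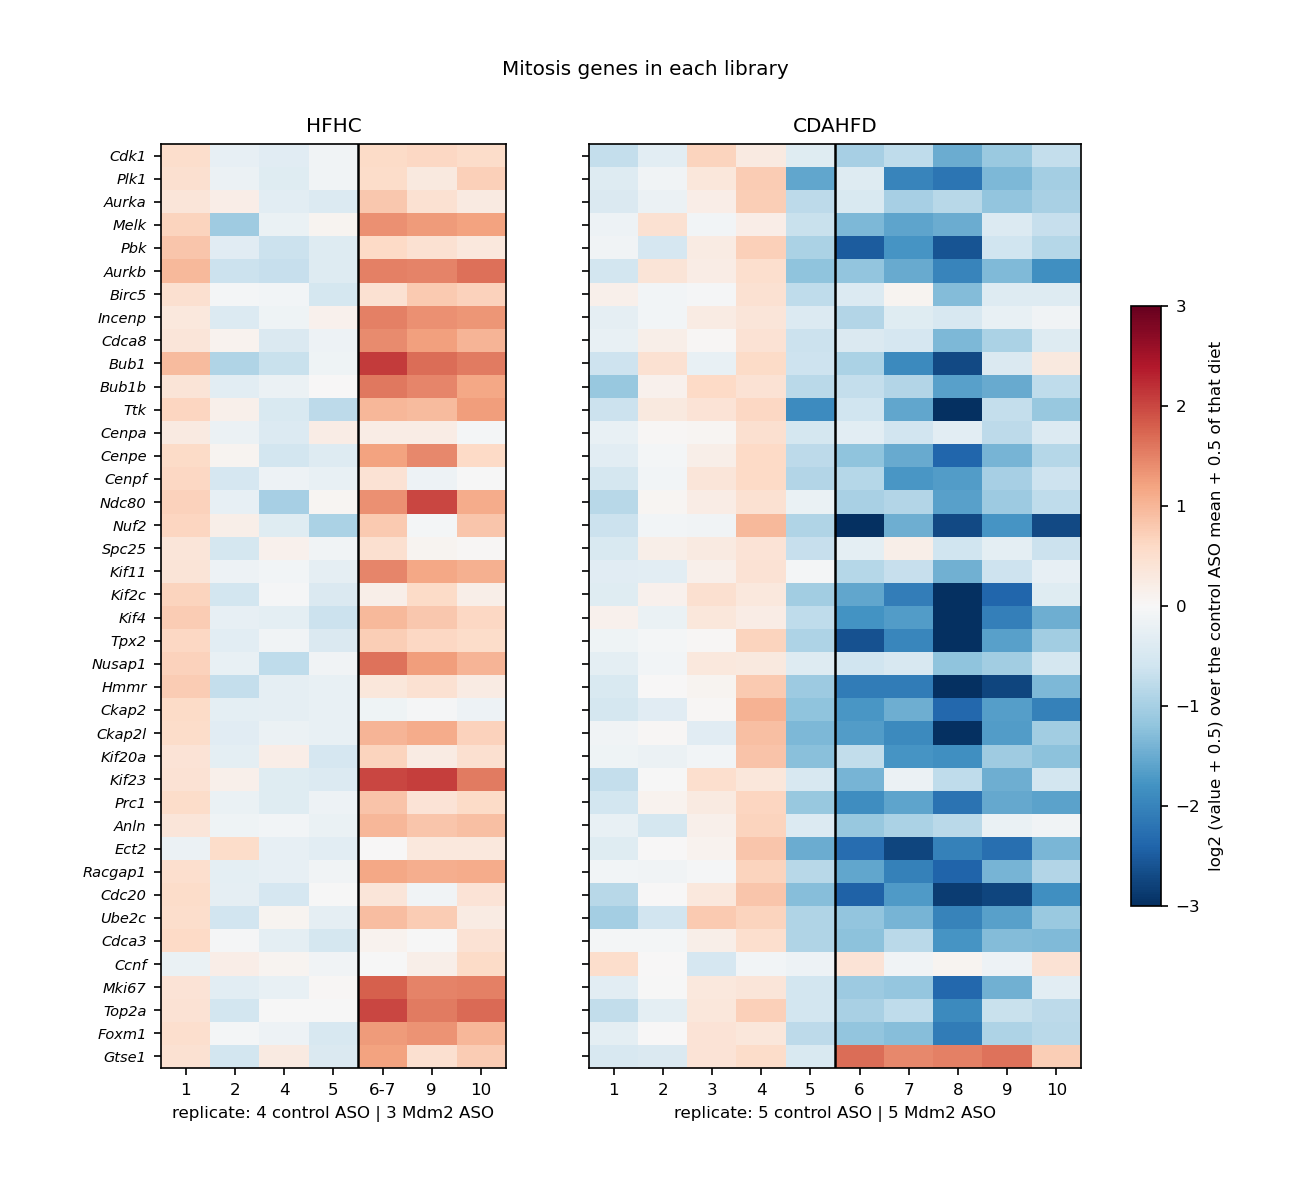
Each of the 40 genes (rows) in each library (columns, numbered by replicate, the control ASO libraries to the left of the black line) as log2 of the normalized count over the mean of the control ASO libraries on the same diet, both with 0.5 added; colours are capped at -3 and 3. Control ASO replicate 1 on HFHC and control ASO replicate 4 on CDAHFD are redder than the rest of their groups, and Mdm2 ASO replicate 8 on CDAHFD is the bluest column.

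Promoter sequence was examined for elements through which many mitosis genes are regulated, such as the CHR. The 40 genes were chosen as mitosis genes, so the shares below describe that choice and not the change with the Mdm2 ASO. RefSeq windows (build GRCm38.p6, 250 bases before to 50 after the annotated start, so the upstream flank and the beginning of the first exon) were matched by symbol for 34 of the 40 genes and for 27025 genes in all. Aurkb, Incenp, Kif20a, Tpx2, Foxm1 and Pbk had no window. Where a gene had more than 1 window, as Ect2, Prc1 and Gtse1 did, the first listed was counted. Both strands were searched for the CHR as TTTGAA or TTCGAA, for the CCAAT box bound by NF-Y, and for the E2F motif as TTCGCGC or TTGGCGC; no motif's letters contain another's. A CHR match lay in 28 of the 34 windows (82.4%) and in 19.4% of all windows. CCAAT was found in 27 of the 34 (79.4%) against 37.9% of all windows, at least 2 of them in 19 (55.9%) against 12.2%, and both a CHR and a CCAAT match in 25 (73.5%) against 7.7%. An E2F match was found in 4 windows (11.8%, against 4.0% of all), and a p53 half-site in 5 (14.7%, against 8.4%). These are matches of letters and not shown to be sites.

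The windows of 5 genes are printed below, with the CHR and CCAAT matches of either strand in capitals. Mki67, at chr7:135716330-135716629 (minus strand), Racgap1, at chr15:99651607-99651906 (minus strand), and Ckap2l, at chr2:129297163-129297462 (minus strand), are shown as genes that rose on HFHC and fell on CDAHFD. Cenpe did so too, but its window, with 1 CCAAT match and no CHR match, is not printed. Aurkb and Foxm1 also did so and had no window. Cdc20, at chr4:118437294-118437593 (minus strand), is shown because it fell on CDAHFD with no call on HFHC, and Gtse1, at chr15:85859457-85859756 (plus strand), because it rose on both.
Mki67: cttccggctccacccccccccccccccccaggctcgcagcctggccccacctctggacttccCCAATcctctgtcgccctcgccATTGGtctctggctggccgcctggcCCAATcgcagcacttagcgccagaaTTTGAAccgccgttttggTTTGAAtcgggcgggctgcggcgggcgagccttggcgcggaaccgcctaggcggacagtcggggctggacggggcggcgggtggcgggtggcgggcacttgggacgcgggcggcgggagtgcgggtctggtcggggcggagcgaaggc
Racgap1: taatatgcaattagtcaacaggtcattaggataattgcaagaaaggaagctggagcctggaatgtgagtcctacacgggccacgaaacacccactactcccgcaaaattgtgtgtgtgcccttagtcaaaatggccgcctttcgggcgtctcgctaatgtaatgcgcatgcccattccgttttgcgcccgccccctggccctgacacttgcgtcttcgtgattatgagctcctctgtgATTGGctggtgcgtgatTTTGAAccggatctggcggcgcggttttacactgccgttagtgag
Ckap2l: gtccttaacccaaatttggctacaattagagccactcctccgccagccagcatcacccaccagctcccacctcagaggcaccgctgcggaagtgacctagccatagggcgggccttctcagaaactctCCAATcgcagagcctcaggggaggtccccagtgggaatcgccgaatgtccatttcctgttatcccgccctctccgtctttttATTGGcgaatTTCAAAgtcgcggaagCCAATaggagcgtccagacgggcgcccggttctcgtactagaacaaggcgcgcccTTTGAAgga
Cdc20: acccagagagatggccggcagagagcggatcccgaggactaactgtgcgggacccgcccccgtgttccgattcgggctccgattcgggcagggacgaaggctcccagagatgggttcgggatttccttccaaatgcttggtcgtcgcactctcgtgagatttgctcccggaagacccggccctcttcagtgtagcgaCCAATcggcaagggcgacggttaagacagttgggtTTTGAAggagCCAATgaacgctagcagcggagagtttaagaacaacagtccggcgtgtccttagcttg
Gtse1: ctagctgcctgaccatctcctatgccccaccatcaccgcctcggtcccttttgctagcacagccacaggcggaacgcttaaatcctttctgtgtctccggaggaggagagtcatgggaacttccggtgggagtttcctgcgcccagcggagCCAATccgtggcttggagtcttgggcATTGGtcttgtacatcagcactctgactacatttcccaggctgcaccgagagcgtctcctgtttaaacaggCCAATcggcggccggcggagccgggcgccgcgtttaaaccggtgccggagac
The Mki67 window holds 2 CHR and 3 CCAAT matches, the Racgap1 window 1 of each, the Ckap2l window 2 CHR and 3 CCAAT matches and the Cdc20 window 1 CHR and 2 CCAAT matches. The Gtse1 window printed holds 3 CCAAT matches and no match to TTTGAA or TTCGAA, the only CHR forms searched. Its other window, at chr15:85859696-85859995, holds 1 CCAAT match, no CHR match and a p53 half-site match at position 10 from that start. These CHR letters were also not found in the windows of Nuf2, Nusap1, Cenpe, Melk and Birc5. The Ccnf window holds 2 CHR and 2 CCAAT matches, and those of Spc25 and Cenpa hold 1 CHR and 2 CCAAT matches each. None of Ccnf, Spc25 and Cenpa was called on either diet or in the difference between the diets. Nuf2 fell on CDAHFD with the lowest log2 fold change of the 40 genes, and Cenpe was called in opposite directions on the 2 diets. Whether the matches bear on any of these changes was not tested.

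Mki67 and Top2a act on chromosome structure. Mki67 encodes the proliferation antigen that coats mitotic chromosomes, and Top2a encodes the topoisomerase that disentangles sister chromatids. Normalized counts of Mki67 on HFHC were 254, 153, 163 and 196 in the control ASO libraries and 659, 538 and 544 in the Mdm2 ASO libraries. All of the Mdm2 ASO libraries lay above all controls, and Mki67 rose from a mean of 191 ± 45.6 (SD, n = 4) to 580.4 ± 68.5 (SD, n = 3) (limma, log2 fold change 1.62 with SE 0.17, adjusted p = 9.96e-05). On CDAHFD the counts were 305, 382, 473, 493 and 259.9 in the control ASO libraries and 179, 172, 74.8, 142 and 305 in the Mdm2 ASO libraries. Mki67 fell from a mean of 383 ± 102 (SD, n = 5) to 174 ± 83.9 (SD, n = 5) (limma, log2 fold change -1.23 with SE 0.29, adjusted p = 0.0151), although Mdm2 ASO replicate 10 lay above the lowest controls. The difference between the diets was -2.85, SE 0.42, adjusted p = 7.81e-05 in the limma test of the difference, and no single library or setting ended any of these calls.

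Top2a on HFHC stood at 110.4, 56.1, 80.9 and 80.95 in the control ASO libraries and 329, 242 and 269 in the Mdm2 ASO libraries, with no overlap, and rose from a mean of 82.1 ± 22.2 (SD, n = 4) to 279.9 ± 44.4 (SD, n = 3) (limma, log2 fold change 1.79 with SE 0.22, adjusted p = 0.000227). Its counts on CDAHFD were 82.6, 113, 174, 226 and 94.4 in the control ASO libraries and 70.2, 81.6, 36.3, 86.2 and 80.3 in the Mdm2 ASO libraries. The Mdm2 ASO mean was lower there, but the groups overlapped through the lowest control and the change was not called (limma, log2 fold change -0.91 with SE 0.30, adjusted p = 0.0593). It was called lower without control ASO replicate 1 or 5, under quantile normalization, and with edgeR or DESeq2. The effect nevertheless differed between the diets (limma, -2.70, SE 0.43, adjusted p = 0.000169).

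**Figure D3:**
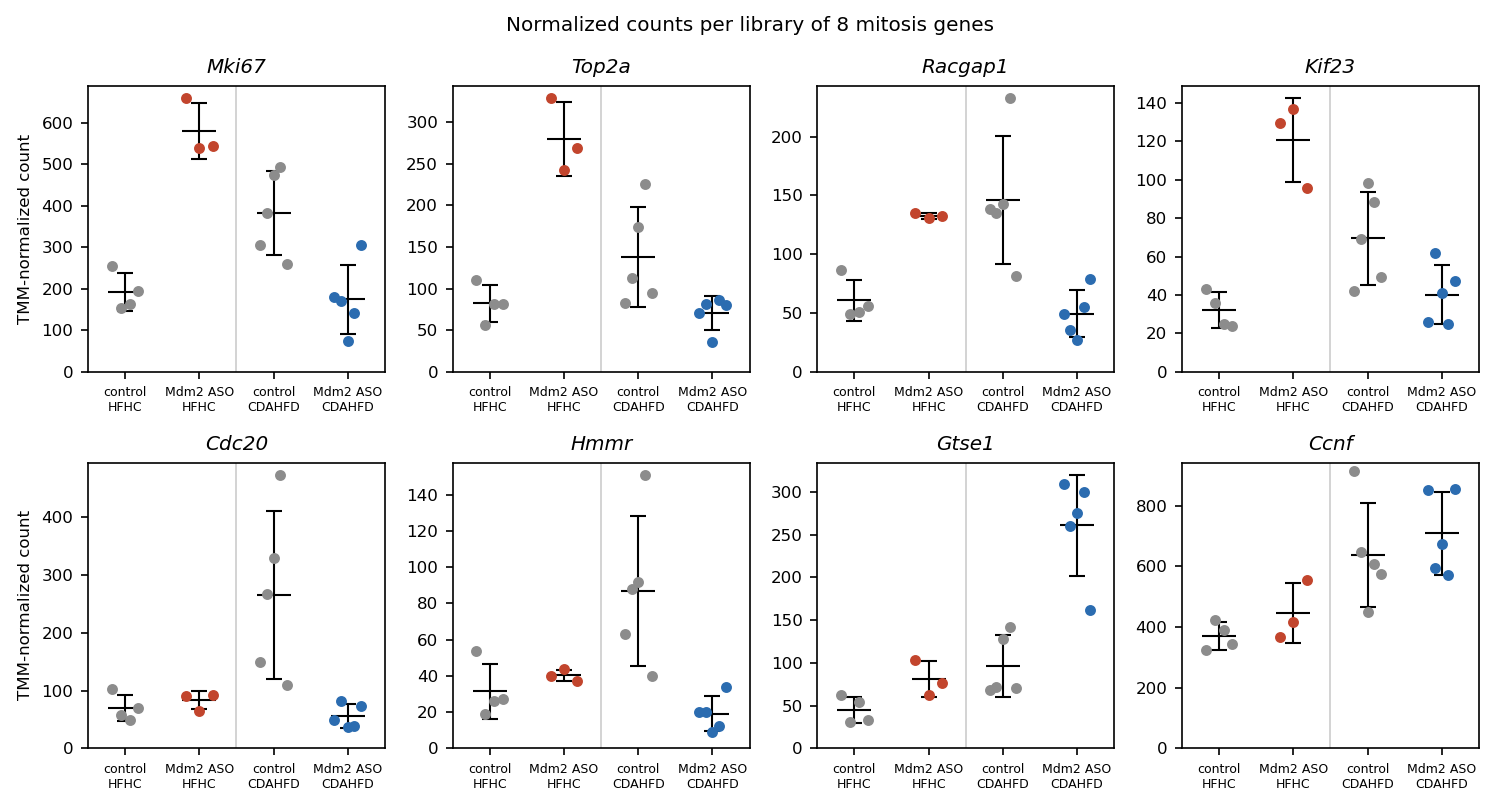
TMM-normalized counts (vertical axes, starting at 0) of 8 mitosis genes in each library, with the mean and SD of each group; grey points are control ASO, red points Mdm2 ASO on HFHC and blue points Mdm2 ASO on CDAHFD, and the grey line separates the tables, which were normalized separately. Mki67, Racgap1, Cdc20 and Hmmr are lower with the Mdm2 ASO on CDAHFD, Gtse1 is higher on both diets, and the groups of Ccnf overlap on both.

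The chromosomal passenger complex corrects wrong attachments of chromosomes to the spindle and later directs cleavage of the cell. It consists of the kinase Aurkb, the scaffold Incenp and the targeting subunits Birc5 (survivin) and Cdca8 (borealin). All 4 genes rose on HFHC, 1 of the 4 (Aurkb) fell on CDAHFD, and the difference between the diets was called for all 4. The number that fell on CDAHFD was 0 without control ASO replicate 2 or 4 and 2 without control ASO replicate 5. Aurkb counts on HFHC were 49.55, 15.7, 15.1 and 18.99 in the control ASO libraries and 71.3, 70.9 and 78.8 in the Mdm2 ASO libraries. Control ASO replicate 1 was far above the other controls yet below every Mdm2 ASO library, and Aurkb rose from a mean of 24.8 ± 16.6 (SD, n = 4) to 73.7 ± 4.44 (SD, n = 3) (limma, log2 fold change 1.73 with SE 0.39, adjusted p = 0.00839). On CDAHFD the counts were 31.1, 60.1, 54.1, 65.3 and 19.6 in the control ASO libraries and 19.9, 15.7, 11.3, 18.2 and 12.4 in the Mdm2 ASO libraries. Aurkb fell there (limma, log2 fold change -1.44 with SE 0.35, adjusted p = 0.0163), a call that ended without control ASO replicate 2 or 4 (adjusted p 0.000428 to 0.0542 over the 17 other settings). Its difference between the diets, -3.17, SE 0.55, adjusted p = 0.000345 (limma), was the lowest of the 40.

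Incenp counts on HFHC were 119.7, 71.8, 87.4 and 105 in the control ASO libraries and 273, 248 and 242 in the Mdm2 ASO libraries, and its rise (limma, log2 fold change 1.42 with SE 0.17, adjusted p = 0.000253) had no overlap between the groups. Cdca8 on HFHC ranged from 24.8 to 43.4 in the control ASO group and 68.7 to 90.8 in the Mdm2 ASO group, and also rose without overlap (limma, log2 fold change 1.26 with SE 0.23, adjusted p = 0.00298). Birc5 was the least separated of the 4. Its counts of 90.8, 61.7, 61.5 and 44.97 in the control ASO libraries and 88.9, 112 and 105 in the Mdm2 ASO libraries overlapped, and its call on HFHC (limma, log2 fold change 0.69 with SE 0.23, adjusted p = 0.0481) ended in 9 of 15 other settings, among them the omission of any library other than control ASO replicate 1. On CDAHFD the log2 fold changes of Incenp, Cdca8 and Birc5 were -0.38, -0.68 and -0.43 and none was called (limma, adjusted p = 0.21, 0.0888 and 0.29).

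Bub1, Bub1b (BubR1) and Ttk (Mps1) are the kinases and effectors of the spindle assembly checkpoint, which delays anaphase until all chromosomes are attached. All 3 rose on HFHC and none was called on CDAHFD. Bub1 counts on HFHC were 17.6, 4.49, 5.39 and 8.00 in the control ASO libraries and 39.8, 29.3 and 27.3 in the Mdm2 ASO libraries, and its log2 fold change of 1.97 was the highest of the 40 genes on that diet (limma, SE 0.45, adjusted p = 0.00922). Bub1b counts were 49.5, 30.3, 33.4 and 37.98 in the control ASO libraries and 115, 105 and 84.9 in the Mdm2 ASO libraries, also without overlap (limma, log2 fold change 1.43 with SE 0.22, adjusted p = 0.000961). Ttk, at 14.4, 10.1, 6.47 and 5.00 in the control ASO libraries and 18.5, 17.97 and 22.2 in the Mdm2 ASO libraries, did not overlap either, but its call (limma, log2 fold change 1.18 with SE 0.39, adjusted p = 0.0467) ended in 11 of 15 other settings, including the omission of any library other than control ASO replicate 1.

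On CDAHFD the checkpoint genes scattered widely within the groups. Bub1 counts were 16.1, 34.2, 21.1, 37.1 and 15.9 in the control ASO libraries and 12.6, 6.28, 3.40, 18.2 and 30.5 in the Mdm2 ASO libraries, so that Mdm2 ASO replicate 10 stood near the highest controls and replicate 8 was the lowest. Ttk counts were 16.1, 31.4, 33.9, 39.5 and 6.54 in the control ASO libraries and 16.8, 8.37, 2.27, 15.3 and 11.3 in the Mdm2 ASO libraries. The log2 fold changes of Bub1, Bub1b and Ttk were -1.05, -0.95 and -1.20 (limma, adjusted p = 0.196, 0.0896 and 0.183), and without control ASO replicate 1, 1 of the 3 (Bub1b) was called lower. All 3 differed between the diets. The difference was -3.03, SE 0.76, adjusted p = 0.00739 for Bub1, -2.37, SE 0.48, adjusted p = 0.00139 for Bub1b and -2.38, SE 0.81, adjusted p = 0.0391 for Ttk (limma). The call for Ttk ended without control ASO replicate 4 of either diet, among others.

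The kinetochore and centromere genes were split between called and uncalled on both diets. Ndc80, Nuf2 and Spc25 form the complex that grips microtubules, Cenpe is a motor that brings chromosomes to the spindle equator, Cenpf joins kinetochores in late G2, and Cenpa is the histone H3 variant that marks the centromere. On HFHC 2 of the 6 rose, Cenpe and Ndc80, and on CDAHFD 3 fell, Cenpe, Cenpf and Nuf2. The number that rose on HFHC was 0 without Mdm2 ASO replicate 9 and 1 without control ASO replicate 4 or 5 or Mdm2 ASO replicate 6-7. The difference between the diets was called for 3 of the 6, and for 5 without CDAHFD control ASO replicate 5. Cenpe counts were 43.4, 30.3, 19.4 and 21.99 in the control ASO libraries and 67.6, 78.5 and 43.5 in the Mdm2 ASO libraries on HFHC. Mdm2 ASO replicate 10 only just exceeded the highest control, and the call (limma, log2 fold change 1.15 with SE 0.32, adjusted p = 0.0239) ended without control ASO replicate 4 or 5 or Mdm2 ASO replicate 6-7 or 9 (adjusted p 0.00582 to 0.109 over 15 settings). On CDAHFD Cenpe counts were 77.2, 92.5, 110.1, 147 and 56.1 in the control ASO libraries and 41.9, 33.5, 18.1, 36.4 and 53.2 in the Mdm2 ASO libraries, without overlap, and Cenpe fell from a mean of 96.7 ± 34.6 (SD, n = 5) to 36.6 ± 12.8 (SD, n = 5) (limma, log2 fold change -1.40 with SE 0.31, adjusted p = 0.00986).

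Ndc80 counts on HFHC were 21.7, 11.2, 6.47 and 13.99 in the control ASO libraries and 35.2, 54.9 and 29.3 in the Mdm2 ASO libraries. It rose there (limma, log2 fold change 1.61 with SE 0.41, adjusted p = 0.0154), a call that ended without Mdm2 ASO replicate 9, the highest library. On CDAHFD its counts were 16.1, 30.5, 33.9, 40.3 and 25.2 in the control ASO libraries and 14.7, 15.7, 9.07, 13.4 and 16.97 in the Mdm2 ASO libraries, and the change just missed the threshold (limma, log2 fold change -1.01 with SE 0.32, adjusted p = 0.0506) and passed it in 6 of 17 other settings. Nuf2, its partner in the same complex, gave the opposite pair of calls. Nuf2 counts on HFHC were 37.2, 26.9, 18.3 and 11.99 in the control ASO libraries and 40.8, 22.7 and 42.4 in the Mdm2 ASO libraries, which overlapped (limma, log2 fold change 0.64 with SE 0.40, adjusted p = 0.264). On CDAHFD they were 30.04, 44.4, 44.03, 92.7 and 25.2 in the control ASO libraries and 4.19, 16.8, 6.80, 13.4 and 6.79 in the Mdm2 ASO libraries, without overlap, and Nuf2 fell from a mean of 47.3 ± 26.7 (SD, n = 5) to 9.59 ± 5.26 (SD, n = 5) (limma, log2 fold change -2.25 with SE 0.43, adjusted p = 0.00445). Both genes differed between the diets, by -2.62 for Ndc80 and -2.89 for Nuf2 (limma, adjusted p = 0.000994 and 0.00297).

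The other subunit measured, Spc25, was called on neither diet. Its counts ranged from 59.5 to 110.4 in the control ASO group and 86.9 to 118 in the Mdm2 ASO group on HFHC and from 73.8 to 159 in the control ASO group and 76.9 to 135 in the Mdm2 ASO group on CDAHFD, and the difference between the diets was -0.49, SE 0.36, adjusted p = 0.345 (limma). Cenpa was likewise not called on HFHC (limma, log2 fold change 0.15 with SE 0.18, adjusted p = 0.567) or CDAHFD (limma, log2 fold change -0.44 with SE 0.17, adjusted p = 0.0947). Cenpf counts on CDAHFD were 66.5, 89.7, 124, 146 and 51.4 in the control ASO libraries and 52.4, 28.3, 29.5, 47.9 and 62.2 in the Mdm2 ASO libraries. Cenpf fell there (limma, log2 fold change -1.07 with SE 0.31, adjusted p = 0.0355), a call that ended without any one of control ASO replicates 2, 3 and 4 and Mdm2 ASO replicates 7, 8 and 9. On HFHC its log2 fold change was 0.15 (adjusted p = 0.735), and its difference between the diets missed the threshold (limma, -1.23, SE 0.47, adjusted p = 0.0687).

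Of the 8 spindle genes, the largest group, 6 fell on CDAHFD, while 3 of the 4 genes of ubiquitin ligases and their adaptors did. Kif2c, a kinesin that disassembles microtubules, Kif4, a kinesin of the chromosome arms, Tpx2, which activates Aurka and nucleates microtubules, Hmmr, a spindle pole protein, and the microtubule-associated proteins Ckap2 and Ckap2l all fell. Kif11 (Eg5), the motor that pushes the poles apart, and Nusap1, which bundles spindle fibres, were not called there. On HFHC 3 of the 8 rose, Kif11, Nusap1 and Ckap2l, and without control ASO replicate 1, 6 did, with Kif4, Tpx2 and Hmmr added. The difference between the diets was called for all 8.

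Hmmr counts on CDAHFD were 63.3, 87.9, 91.7, 151 and 40.2 in the control ASO libraries and 19.9, 19.9, 9.07, 12.4 and 33.9 in the Mdm2 ASO libraries. The highest Mdm2 ASO library was below the lowest control, and Hmmr fell from a mean of 86.8 ± 41.3 (SD, n = 5) to 19.1 ± 9.57 (SD, n = 5) (limma, log2 fold change -2.16 with SE 0.39, adjusted p = 0.00303). On HFHC the counts were 53.7, 19.1, 25.9 and 26.98 in the control ASO libraries and 39.8, 43.5 and 37.4 in the Mdm2 ASO libraries, where the Mdm2 ASO libraries lay close together and inside the range of the controls (limma, log2 fold change 0.46 with SE 0.33, adjusted p = 0.33). Tpx2 counts on CDAHFD were 142, 149, 159, 249.7 and 81.3 in the control ASO libraries and 25.1, 39.8, 7.94, 49.8 and 75.8 in the Mdm2 ASO libraries. Tpx2 also fell without overlap (limma, log2 fold change -2.20 with SE 0.48, adjusted p = 0.009), with the lowest count in Mdm2 ASO replicate 8. On HFHC Tpx2 ranged from 41.97 to 87.7 in the control ASO group and 83.9 to 95.4 in the Mdm2 ASO group (limma, log2 fold change 0.70 with SE 0.25, adjusted p = 0.0618).

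Kif4 counts on CDAHFD were 45.1, 36.1, 52.3, 48.3 and 24.3 in the control ASO libraries and 11.5, 12.6, 3.40, 9.57 and 14.7 in the Mdm2 ASO libraries, and it fell from a mean of 41.2 ± 11.2 (SD, n = 5) to 10.3 ± 4.30 (SD, n = 5) (limma, log2 fold change -2.03 with SE 0.39, adjusted p = 0.00448). In the GENCODE M21 annotation of GRCm38, 15.1% of the exonic bases of Kif4 are shared with Pdzd11 on the opposite strand, and the strand setting of the authors' counting is not given in the sources used here. Ckap2 counts on CDAHFD were 171, 194, 252, 503 and 107 in the control ASO libraries and 73.3, 87.9, 47.6, 77.5 and 59.9 in the Mdm2 ASO libraries, with control ASO replicate 4 far above the other controls and every Mdm2 ASO library below every control (limma, log2 fold change -1.65 with SE 0.32, adjusted p = 0.00516). Ckap2 was the only one of the 40 genes with a log2 fold change below 0 on HFHC, -0.05 (adjusted p = 0.89), and that value was 0.16 without control ASO replicate 1. Kif2c on CDAHFD ranged from 34.6 to 100.9 in the control ASO group and 7.94 to 55.4 in the Mdm2 ASO group. It fell (limma, log2 fold change -1.80 with SE 0.45, adjusted p = 0.0174) although Mdm2 ASO replicate 10 lay among the controls. On HFHC the log2 fold changes of Kif2c and Kif4 were 0.38 and 0.90 and were not called (limma, adjusted p = 0.396 and 0.0667).

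Ckap2l was called in opposite directions. On HFHC its counts were 50.6, 26.9, 30.2 and 28.98 in the control ASO libraries and 69.5, 74.7 and 55.6 in the Mdm2 ASO libraries, and it rose (limma, log2 fold change 0.99 with SE 0.26, adjusted p = 0.0167), a call that ended without Mdm2 ASO replicate 9. On CDAHFD they were 78.3, 86.01, 66.97, 157 and 32.7 in the control ASO libraries and 26.2, 21.98, 6.80, 25.9 and 40.7 in the Mdm2 ASO libraries. The fall there (limma, log2 fold change -1.80 with SE 0.45, adjusted p = 0.0195) ended without control ASO replicate 2 or 4 (adjusted p 0.00032 to 0.0541 over 17 settings). Kif11 and Nusap1 rose on HFHC without overlap. Kif11 counts were 55.7, 38.2, 39.9 and 34.98 in the control ASO libraries and 118, 95.5 and 88.9 in the Mdm2 ASO libraries (limma, log2 fold change 1.26 with SE 0.21, adjusted p = 0.00164). Nusap1 counts were 45.4, 23.6, 16.2 and 25.98 in the control ASO libraries and 87.05, 67.2 and 56.6 in the Mdm2 ASO libraries (limma, log2 fold change 1.40 with SE 0.33, adjusted p = 0.0114). On CDAHFD the log2 fold changes of Kif11 and Nusap1 were -0.74 and -0.74 (limma, adjusted p = 0.0658 and 0.0524), and the Nusap1 groups did not overlap.

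Cytokinesis genes showed both patterns side by side. Kif23 and Racgap1 form centralspindlin, the complex that organises the midzone and recruits Ect2, the exchange factor that switches on RhoA. Prc1 cross-links midzone microtubules, Kif20a moves cargo to the midzone and Anln scaffolds the contractile ring. On HFHC 3 of the 6 rose (Kif23, Anln and Racgap1) and on CDAHFD 4 fell (Kif20a, Prc1, Ect2 and Racgap1). The difference between the diets was called for all 6. Racgap1 counts on HFHC were 86.7, 49.4, 50.7 and 55.96 in the control ASO libraries and 135, 130.5 and 132 in the Mdm2 ASO libraries. The 3 Mdm2 ASO libraries were nearly equal and all above the controls, and Racgap1 rose from a mean of 60.7 ± 17.6 (SD, n = 4) to 133 ± 2.36 (SD, n = 3) (limma, log2 fold change 1.16 with SE 0.21, adjusted p = 0.00253). On CDAHFD its counts were 138, 135, 143, 233 and 81.3 in the control ASO libraries and 49.2, 35.6, 27.2, 55.5 and 79.2 in the Mdm2 ASO libraries. Racgap1 fell without overlap from a mean of 146 ± 54.6 (SD, n = 5) to 49.3 ± 20.04 (SD, n = 5) (limma, log2 fold change -1.57 with SE 0.30, adjusted p = 0.00473), and both calls held in every setting tried.

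Kif23, the other centralspindlin subunit, had counts of 43.4, 35.9, 24.8 and 23.98 in the control ASO libraries and 129.7, 137 and 95.98 in the Mdm2 ASO libraries on HFHC and rose from a mean of 32.02 ± 9.31 (SD, n = 4) to 121 ± 21.9 (SD, n = 3) (limma, log2 fold change 1.93 with SE 0.25, adjusted p = 0.000406). On CDAHFD its counts were 41.8, 69.4, 98.2, 88.6 and 49.5 in the control ASO libraries and 26.2, 61.8, 40.8, 24.9 and 47.5 in the Mdm2 ASO libraries, which overlapped and were not called (limma, log2 fold change -0.79 with SE 0.31, adjusted p = 0.107). Ect2 gave the reverse. Its HFHC counts were 38.2, 63.99, 36.7 and 34.98 in the control ASO libraries and 43.5, 53.9 and 54.6 in the Mdm2 ASO libraries, with the highest value in control ASO replicate 2 (limma, log2 fold change 0.26 with SE 0.25, adjusted p = 0.473). On CDAHFD they were 100.8, 131, 140.4, 234 and 45.8 in the control ASO libraries and 26.2, 18.8, 31.7, 26.8 and 49.8 in the Mdm2 ASO libraries, and Ect2 fell from a mean of 130.4 ± 68.5 (SD, n = 5) to 30.7 ± 11.6 (SD, n = 5) (limma, log2 fold change -1.96 with SE 0.37, adjusted p = 0.00432). Only the overlap of Mdm2 ASO replicate 10 with control ASO replicate 5 kept these groups from being separate.

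Prc1 counts on CDAHFD were 47.2, 75.8, 84.4, 110.4 and 31.8 in the control ASO libraries and 18.9, 23.03, 14.7, 23.9 and 22.6 in the Mdm2 ASO libraries, and it fell without overlap (limma, log2 fold change -1.63 with SE 0.32, adjusted p = 0.00557). On HFHC its log2 fold change was 0.66 (adjusted p = 0.0652). In the same annotation 11.1% of the exonic bases of Prc1 are shared with Rccd1, and 29.3% of those of Kif20a with Cdc23, each on the opposite strand. Kif20a on CDAHFD ranged from 34.6 to 152 in the control ASO group and 22.7 to 49.2 in the Mdm2 ASO group. Its fall (limma, log2 fold change -1.18 with SE 0.34, adjusted p = 0.0355) was lost without any one of control ASO replicates 1 to 4 or Mdm2 ASO replicates 7 and 8. Its log2 fold change on HFHC was 0.50 (limma, adjusted p = 0.14). Anln counts on HFHC were 41.3, 29.2, 30.2 and 27.98 in the control ASO libraries and 64.8, 57.7 and 60.6 in the Mdm2 ASO libraries, and Anln rose (limma, log2 fold change 0.93 with SE 0.21, adjusted p = 0.008). On CDAHFD its log2 fold change was -0.57 and was not called (adjusted p = 0.2).

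The genes of ubiquitin ligases and their adaptors were mostly lower with the Mdm2 ASO on CDAHFD. Cdc20 is the activator through which the anaphase promoting complex destroys securin and cyclin B, Ube2c is the ubiquitin-conjugating enzyme that serves that complex, Cdca3 is an adaptor for the destruction of Wee1, and Ccnf is the substrate receptor of an SCF ligase. On CDAHFD 3 of the 4 fell, Cdc20, Ube2c and Cdca3. On HFHC 0 of the 4 were called, and without control ASO replicate 1, 1 of the 4, Ube2c, rose. Cdc20 counts on CDAHFD were 150.2, 267, 329, 473 and 110.3 in the control ASO libraries and 49.2, 81.6, 36.3, 39.2 and 73.5 in the Mdm2 ASO libraries. The highest Mdm2 ASO library was below the lowest control, and Cdc20 fell from a mean of 266 ± 145 (SD, n = 5) to 55.98 ± 20.49 (SD, n = 5) (limma, log2 fold change -2.13 with SE 0.36, adjusted p = 0.00211). On HFHC its counts were 102, 58.4, 49.6 and 69.96 in the control ASO libraries and 90.8, 65.3 and 92.95 in the Mdm2 ASO libraries, fully overlapping (limma, log2 fold change 0.28 with SE 0.26, adjusted p = 0.448). The effect on Cdc20 differed between the diets (limma, -2.40, SE 0.53, adjusted p = 0.00268).

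Ube2c counts on CDAHFD were 90.1, 122, 315, 289 and 98.2 in the control ASO libraries and 80.6, 69.1, 45.4, 58.4 and 84.8 in the Mdm2 ASO libraries, with control ASO replicates 3 and 4 far above the other controls. Its fall (limma, log2 fold change -1.25 with SE 0.34, adjusted p = 0.027) had no overlap, but the call was lost without any one of control ASO replicates 3 and 4 and Mdm2 ASO replicates 7, 8 and 9. In the annotation 22.8% of its exonic bases are shared with Tnnc2 on the opposite strand. Cdca3 counts on CDAHFD were 238, 239, 283, 356 and 135 in the control ASO libraries and 106, 142, 72.6, 102 and 99.5 in the Mdm2 ASO libraries, and it fell (limma, log2 fold change -1.22 with SE 0.24, adjusted p = 0.00478). On HFHC their log2 fold changes were 0.70 and 0.24 and were not called (limma, adjusted p = 0.0808 and 0.509). Both also differed between the diets, by -1.96 for Ube2c and -1.46 for Cdca3 (limma, adjusted p = 0.00952 and 0.00883). Ccnf was the exception. Its counts were 323, 423, 390.5 and 344 in the control ASO libraries and 366, 415 and 556 in the Mdm2 ASO libraries on HFHC and 913, 646, 449.5, 607 and 574 in the control ASO libraries and 850.4, 594, 673, 572 and 855 in the Mdm2 ASO libraries on CDAHFD. The groups overlapped on both diets (limma, adjusted p = 0.238 and 0.558), and the difference between the diets was -0.08, SE 0.26, adjusted p = 0.857 (limma).

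The calls among the kinases of mitotic entry depended on single libraries. Cdk1 is the catalytic partner of the mitotic cyclins, Plk1 and Aurka mature the centrosomes and the spindle, and Melk and Pbk are kinases expressed in dividing cells. On HFHC Melk was the 1 of 5 that rose, and on CDAHFD 2 fell, Cdk1 and Pbk, while the difference between the diets was called for all 5. Without HFHC control ASO replicate 1, 4 of the 5 rose, with Cdk1, Plk1 and Pbk added, and without any other HFHC library except control ASO replicate 2, 0 did. On CDAHFD 0 fell without control ASO replicate 4 or Mdm2 ASO replicate 8, 4 fell without control ASO replicate 5, and 1 fell without any one of control ASO replicates 1 to 3 and Mdm2 ASO replicates 7 and 9. The difference was called for 3 of the 5 without HFHC control ASO replicate 4 and for 2 without HFHC Mdm2 ASO replicate 6-7. Cdk1 counts on HFHC were 101.2, 58.4, 55.01 and 64.96 in the control ASO libraries and 105, 108 and 103 in the Mdm2 ASO libraries. The groups did not overlap, yet control ASO replicate 1 stood next to the Mdm2 ASO libraries and the adjusted p of 0.0516 missed the threshold (limma, log2 fold change 0.63). On CDAHFD the counts were 89.04, 118, 235, 178 and 115 in the control ASO libraries and 73.3, 86.9, 52.1, 67.96 and 89.3 in the Mdm2 ASO libraries. Cdk1 fell there (limma, log2 fold change -0.93 with SE 0.25, adjusted p = 0.0264), a call lost without control ASO replicate 4 or Mdm2 ASO replicate 8 or 9.

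Melk counts on HFHC were 12.4, 3.37, 6.47 and 8.00 in the control ASO libraries and 20.4, 18.9 and 18.2 in the Mdm2 ASO libraries. It rose (limma, log2 fold change 1.41 with SE 0.42, adjusted p = 0.0305), but the call was lost without control ASO replicate 4 or 5 or any one Mdm2 ASO library. On CDAHFD Melk had a log2 fold change of -1.05 that was not called (limma, adjusted p = 0.0781). Pbk counts on CDAHFD were 40.8, 30.5, 52.3, 72.5 and 22.4 in the control ASO libraries and 7.33, 12.6, 6.80, 28.7 and 23.8 in the Mdm2 ASO libraries, overlapping through Mdm2 ASO replicates 9 and 10. The fall (limma, log2 fold change -1.55 with SE 0.44, adjusted p = 0.0329) was lost without any one of 7 libraries, which were control ASO replicates 1 to 4 and Mdm2 ASO replicates 6 to 8. On HFHC Pbk had a log2 fold change of 0.58 (limma, adjusted p = 0.272). Plk1 and Aurka were called on neither diet with all libraries. On CDAHFD both were called lower without control ASO replicate 5 or Mdm2 ASO replicate 6 and with DESeq2, and Aurka also with edgeR. Plk1 had log2 fold changes of 0.55 on HFHC and -1.20 on CDAHFD (limma, adjusted p = 0.114 and 0.0741), and its difference was -1.75, SE 0.59, adjusted p = 0.0386. Aurka had 0.56 and -0.80 (limma, adjusted p = 0.14 and 0.0567), with a difference of -1.36, SE 0.39, adjusted p = 0.0178.

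Foxm1 encodes the transcription factor that activates many genes of G2 and mitosis. Its counts on HFHC were 57.8, 39.3, 36.7 and 28.98 in the control ASO libraries and 100, 105 and 81.8 in the Mdm2 ASO libraries, and it rose from a mean of 40.7 ± 12.2 (SD, n = 4) to 95.6 ± 12.2 (SD, n = 3) (limma, log2 fold change 1.26 with SE 0.24, adjusted p = 0.00379). On CDAHFD they were 64.4, 80.5, 106, 99.9 and 45.8 in the control ASO libraries and 34.6, 32.5, 18.1, 41.2 and 45.2 in the Mdm2 ASO libraries, and it fell from a mean of 79.2 ± 24.8 (SD, n = 5) to 34.3 ± 10.4 (SD, n = 5) (limma, log2 fold change -1.20 with SE 0.29, adjusted p = 0.0168). The groups did not overlap on either diet, and both calls held in every setting tried. On each diet Foxm1, itself 1 of the 40 genes, moved in the direction of their median, as most of the others did. Its part in the changes of the other genes was not tested.

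Gtse1 departed from the rest. It encodes a microtubule-binding protein of G2 that carries p53 out of the nucleus, and it is known as a gene that p53 itself can induce. On CDAHFD its counts were 68.7, 71.2, 128, 142 and 70.1 in the control ASO libraries and 309, 259.6, 276, 299.6 and 162 in the Mdm2 ASO libraries. Every Mdm2 ASO library was above every control, and Gtse1 rose from a mean of 96.04 ± 35.99 (SD, n = 5) to 261 ± 58.9 (SD, n = 5) (limma, log2 fold change 1.48 with SE 0.24, adjusted p = 0.00181), in every setting tried. On HFHC its counts were 61.9, 30.3, 53.9 and 32.98 in the control ASO libraries and 104, 62.4 and 76.8 in the Mdm2 ASO libraries, where Mdm2 ASO replicate 9 exceeded the highest control by less than 1 normalized count. The rise there (limma, log2 fold change 0.88 with SE 0.30, adjusted p = 0.0487) was lost in 9 of 15 other settings, among them the omission of any library other than control ASO replicate 1, with adjusted p between 0.0166 and 0.157. The effect was not shown to differ between the diets (limma, 0.60, SE 0.41, adjusted p = 0.318). Cdkn1a, the p53 target, rose on both diets as well, with log2 fold changes of 0.98 on HFHC and 0.78 on CDAHFD (limma, adjusted p = 0.00256 and 0.00873), while Trp53 had -0.12 and -0.08 (adjusted p = 0.534 and 0.568).

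Summed over the 40 genes, the control ASO libraries on HFHC held 3094, 2094, 2102 and 2089 normalized counts and the Mdm2 ASO libraries 4468, 4051 and 4070. On CDAHFD the sums were 4384, 4902, 5767, 7433 and 3177 in the control ASO libraries and 3224, 2973, 2362, 2814 and 3516 in the Mdm2 ASO libraries. The groups were apart on HFHC, while on CDAHFD control ASO replicate 5 lay inside the range of the Mdm2 ASO libraries. Values within a group were spread more widely for these genes than for other genes of like level, which was not tested. The median coefficient of variation among control ASO libraries was 31.9% for the 40 genes and 16.1% for genes in the same range of means on HFHC, and 38.1% against 16.9% on CDAHFD. Among Mdm2 ASO libraries it was 14.8% against 12.4% on HFHC and 31.5% against 20.2% on CDAHFD.

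Further mitosis genes outside the 40 were also measured. Of 69 further mitosis genes tested, which include condensin subunits, centromere proteins and spindle factors, 36 rose and 2 fell on HFHC (median log2 fold change 0.90), and 1 rose and 19 fell on CDAHFD (median -0.78). Of all genes tested, 16.8% were called higher and 13.8% lower on HFHC, and 6.12% and 6.86% on CDAHFD. Without HFHC Mdm2 ASO replicate 9, 22 of the 69 rose. On CDAHFD the number that fell was 4 without control ASO replicate 4, 7 without control ASO replicate 2 or Mdm2 ASO replicate 8, and 11 without Mdm2 ASO replicate 6. Those that went the other way, named after their values were seen, were Spc24, the partner of Spc25, and Pttg1 (securin) on HFHC and the condensin subunit Ncapd3 on CDAHFD. The difference between the diets was called lower for 45 and higher for 2 (Spc24 and Pttg1), and 8 of the 69 were called higher on HFHC and lower on CDAHFD. On HFHC Tacc3, a spindle adaptor, rose from a mean of 64.6 to 149 normalized counts and Ncapd2, a condensin subunit, from 124 to 250.3 (limma, adjusted p = 0.000364 and 0.000707). On CDAHFD Aspm, which organises spindle poles, fell from 77.6 to 23.1 and the kinase Nek2 from 192 to 75.7 (limma, adjusted p = 0.00334 and 0.0106). The cyclins that drive G2 and mitosis were measured as well. Ccna2, Ccnb1 and Ccnb2 all fell on CDAHFD, with log2 fold changes of -1.25, -2.10 and -1.48 (limma, adjusted p = 0.0122, 0.00301 and 0.00247), and on HFHC 1 of the 3, Ccna2, rose (0.73, adjusted p = 0.021). That call ended without control ASO replicate 4 or 5 or Mdm2 ASO replicate 6-7 or 10, and without control ASO replicate 1, 2 of the 3 were called.

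Counts for regulators, the degradation machinery and replication are read against the same shares of all genes, 16.8% higher and 13.8% lower on HFHC and 6.12% and 6.86% on CDAHFD. Of the 11 core genes of DREAM and the MuvB complexes, 3 rose on HFHC (Rbl1, Rbl2 and Tfdp2, the first by 1.25 on the log2 scale) and 0 were called on CDAHFD, with medians of 0.14 and -0.12. The 3 became 1 without control ASO replicate 1, 4 or 5 or Mdm2 ASO replicate 9 or 10. Of 16 core genes of the anaphase promoting complex, 2 (Anapc13 and Anapc2) fell on HFHC, and 1 (Anapc13) rose and 1 (Ube2s) fell on CDAHFD, with medians of 0.03 and -0.04. The 2 became 1 without control ASO replicate 4 or Mdm2 ASO replicate 6-7 or 9. The 1 that rose on CDAHFD became 0 without any library other than control ASO replicate 3 or Mdm2 ASO replicate 10. Of 32 DNA replication genes tested, 20 rose and 1 fell on HFHC (median 0.74), while on CDAHFD 2 rose and 1 fell (median -0.11), and 15 were called lower in the difference between the diets. The 1 that fell on HFHC became 0 without any library other than control ASO replicate 1, and on CDAHFD 3 fell without Mdm2 ASO replicate 9. Mcm3 rose from 93.1 to 301 on HFHC, and on CDAHFD Mcm2 fell from 155 to 87.5, Mcm10 rose from 1560 to 3658 and Tk1, thymidine kinase, rose from 312 to 521 (limma, adjusted p = 1.34e-05, 0.00482, 0.000311 and 0.00993). Of 14 p53 checkpoint genes, 7 rose and 1 (Mdm2) fell on HFHC and 8 rose and 1 (Mdm2) fell on CDAHFD, with medians of 0.50 and 0.78 and 0 called different between the diets. On CDAHFD 5 of the 14 rose without control ASO replicate 2.

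**Figure D4:**
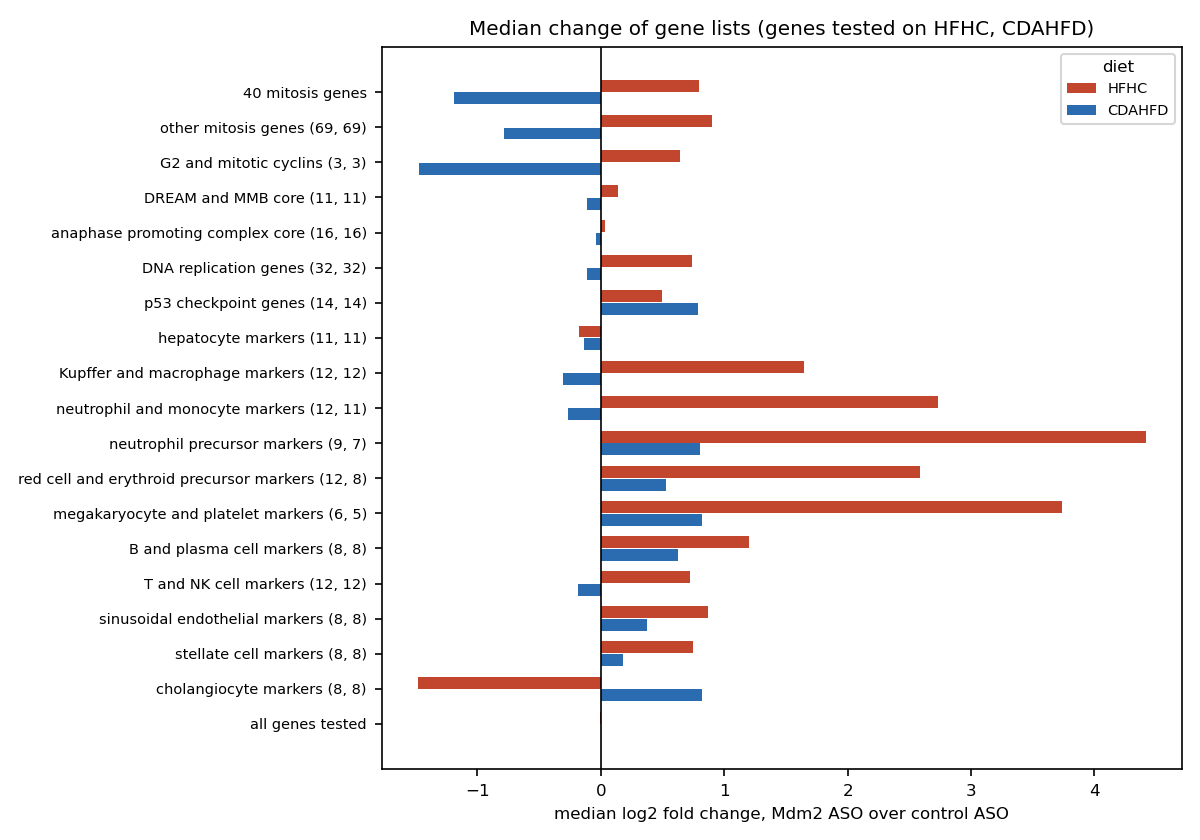
Median log2 fold change (horizontal axis, Mdm2 ASO over control ASO) of the 40 mitosis genes, of each other gene list with the number of its genes tested on HFHC and on CDAHFD, and of all genes tested, on HFHC in red and CDAHFD in blue. The mitosis lists and the cyclins lie to the right of 0 on HFHC and to the left on CDAHFD, and the neutrophil, erythroid and megakaryocyte lists lie farthest to the right on HFHC.

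Markers of blood cells and their precursors moved with the mitosis genes on HFHC. Of the markers tested there, 11 of 12 neutrophil and monocyte markers, 8 of 9 neutrophil precursor markers, 11 of 12 red cell and erythroid precursor markers, 6 of 6 megakaryocyte and platelet markers, 7 of 12 macrophage markers, 5 of 8 B and plasma cell markers and 4 of 12 T and NK cell markers rose, where 16.8% of all genes did. Without Mdm2 ASO replicate 9, 3 of the B and plasma cell and 2 of the T and NK cell markers rose, and without control ASO replicate 4, 3 of the B and plasma cell markers did. The neutrophil precursor list also held the 1 marker that fell, Cebpe, named after its value was seen. Their summed levels did not overlap between the groups. The neutrophil and monocyte markers summed to 674 to 1028 normalized counts in the control ASO libraries and 7489 to 8969 in the Mdm2 ASO libraries, the neutrophil precursor markers to 389 to 527 and 1162 to 2285, and the erythroid markers to 2243 to 3898 and 7897 to 18540. The macrophage markers summed to 11180 to 18790 and 38570 to 44840. A precursor gene was among those that rose: Mpo, the myeloperoxidase of early neutrophils, went from 4.81 to 230.8 (limma, adjusted p = 0.000293). In addition 6 of 8 sinusoidal endothelial and 6 of 8 stellate cell markers rose, and 5 of 8 cholangiocyte markers fell (8 without control ASO replicate 2), where 13.8% of all genes fell. The part of these cells in the rise of the mitosis genes was not tested.

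On CDAHFD, where 6.12% of all genes were called higher and 6.86% lower, 0 to 2 markers of each list were called. None of the 11 neutrophil and monocyte, 8 erythroid and 12 T and NK cell markers tested was called, 1 of 7 neutrophil precursor (Cebpe), 2 of 5 megakaryocyte (Itga2b and Gp1ba), 1 of 8 B cell (Ighm), 1 of 8 endothelial (Stab1) and 1 of 8 stellate cell markers (Ecm1) rose, and 1 of 12 macrophage markers (Cd5l) fell. Of the erythroid markers 1 rose without control ASO replicate 3 and 2 without Mdm2 ASO replicate 10. Of the endothelial markers 3 rose without control ASO replicate 3 and 2 without replicate 5. None rose without control ASO replicate 2 or 4 or Mdm2 ASO replicate 7, 9 or 10. None of the 8 cholangiocyte markers was called with all libraries. Without control ASO replicate 3, 4 rose, without replicate 5, 1 rose, and without replicate 4, 1 fell. The difference between the diets was called higher for 7 of these 8, where 9.83% of all genes were. The macrophage markers summed to 9998 to 19420 in the control ASO libraries and 8431 to 17190 in the Mdm2 ASO libraries, and the neutrophil and monocyte markers to 873 to 1473 and 763 to 1944, so that both overlapped. The erythroid markers summed to 2536 to 7324 and 4065 to 5892, which also overlapped. The megakaryocyte and platelet markers summed to 225.3 to 255.9 and 290.1 to 458.5, and the B and plasma cell markers to 184.5 to 358 and 383.3 to 689.8. For the megakaryocyte and platelet markers and for the B and plasma cell markers, every Mdm2 ASO library was above every control ASO library. Ctsg, a neutrophil precursor protease, was at 0 in all 10 libraries, and Gata1 and Rhag were at 0 in all 5 controls. The hepatocyte markers summed to 1698000 to 2540000 in the control ASO libraries and 1887000 to 2280000 in the Mdm2 ASO libraries. The part of any cell type in the fall of the mitosis genes was not tested.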

How the data were processed

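Strand-specific mRNA libraries of liver RNA were sequenced, per the labels' protocols. Per the submitters' processing notes, STAR 2.7.10b and featureCounts of Subread 2.0.3 were used with build GRCm39. The authors deposited a TMM-normalized count for each gene, a signal that is never negative, and normalized each diet on its own. In every library 100% of the deposited signal values were whole multiples of 1 constant (tolerance 0.001), and division by it gave between 17770748 and 31453055 reads per library.

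Each diet was fitted with limma 3.58.1 (R 4.3.3) on log2(value + 0.5), with a trend, after dropping genes that did not reach a value of 1 in a number of libraries equal to the size of the smaller group. Genes were called at a Benjamini-Hochberg adjusted p under 0.05 over all genes tested. The difference between the diets was a contrast over the 4 group means. Fold changes on this scale understate the change of low genes. Code was tested on simulated data. Alternatives were pseudocounts of 1 and 0.1, no filter, a minimum value of 10, quantile normalization, edgeR 4.0.16 and DESeq2 1.42.0 on the recovered reads, each library left out, replicates 6 and 7 kept apart and, for the difference, a replicate block.

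The 40 genes, their roles and the 17 other lists were chosen with earlier results of these data known. All 40 are named, and from each list up to 4 genes with the smallest p. Listed genes absent from the tables (Hjurp, Tf, Hbb-bs, Ahsp and Trac) were not analysed here. Promoter windows came from RefSeq and were matched by symbol. Values of some single genes are not reported here.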

Additional observations from a re-analysis of the deposited data

Results flagged for a closer look

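A library stood apart from the rest of its group, by the gap to its nearest neighbour over the whole range, for 7 of 120 combinations of gene and group of 4 or 5 libraries (the 3 Mdm2 ASO libraries on HFHC were not examined). Chance alone gives about 1 in 20. On HFHC, 5 of the 7 were high values of control ASO replicate 1, with normalized counts of 31.0 for Pbk, 49.55 for Aurkb, 80.5 for Ckap2, 50.6 for Ckap2l and 41.3 for Anln. Control ASO replicate 2 on HFHC was high for Ect2, at 64.0, and control ASO replicate 4 on CDAHFD for Nuf2, at 92.7.

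The effect of the Mdm2 ASO differed between the diets for 35 of the 40 mitosis genes (limma test of the difference, adjusted p under 0.05). The values that follow are the log2 effect on CDAHFD minus that on HFHC. Among the kinases of mitotic entry it was Cdk1 -1.56, Plk1 -1.75, Aurka -1.36, Melk -2.46 and Pbk -2.13. In the chromosomal passenger complex the values were Aurkb -3.17, Birc5 -1.12, Incenp -1.80 and Cdca8 -1.94. For the spindle checkpoint the difference was Bub1 -3.03, Bub1b -2.37 and Ttk -2.38. At the kinetochore it came to Cenpe -2.54, Ndc80 -2.62 and Nuf2 -2.89. For spindle proteins and motors the values were Kif11 -2.0, Kif2c -2.18, Kif4 -2.93, Tpx2 -2.90, Nusap1 -2.14, Hmmr -2.62, Ckap2 -1.60 and Ckap2l -2.78. For cytokinesis it was Kif20a -1.69, Kif23 -2.72, Prc1 -2.28, Anln -1.50, Ect2 -2.22 and Racgap1 -2.73. For ubiquitin ligases and their adaptors the difference was Cdc20 -2.40, Ube2c -1.96 and Cdca3 -1.46. For chromosome structure it came to Mki67 -2.85 and Top2a -2.70. For transcription the value was Foxm1 -2.45.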

How the results depend on the processing

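On HFHC the number of mitosis genes that rose was 17 to 21 under the other pseudocounts, filters and tools, 25 with replicates 6 and 7 kept apart, and 13 (without Mdm2 ASO replicate 9) to 28 (without control ASO replicate 1) when 1 library was left out, and 0 fell under any of the 15 settings. The same 13 of the 20 genes were called in every setting. On CDAHFD the number that fell was 21 to 30 under the other settings, the 30 with DESeq2, and 14 to 27 with a library left out, 1 rose throughout, and 15 of the 22 calls held in all 17 settings. In the difference between the diets 30 to 37 were lower with a library left out and 32 to 36 otherwise, except 27 with the replicate block, and 0 were higher. With the block 3033 of all genes were called, against 3832 without it. The 8 calls lost with the block were those of Plk1, Aurka, Pbk, Bub1, Ttk, Kif2c, Ckap2 and Anln, and quantile normalization ended those of Plk1, Aurka and Birc5.

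Over all genes, leaving out 1 library gave 3684 to 5021 called on HFHC (5331 in full), 1232 to 2283 on CDAHFD (2181 in full) and 3084 to 4029 in the difference. The CDAHFD count was 1232 without control ASO replicate 2, 1426 without Mdm2 ASO replicate 8 and 1459 without control ASO replicate 4. Quantile normalization moved the HFHC median of all genes to -0.111, with 2482 higher and 3725 lower calls (2932 and 2399 in full), and that of the difference to 0.102, with 2440 and 1961 (1606 and 2226 in full). Directions reversed for uncalled values alone. On HFHC under quantile normalization the log2 fold changes were -0.065 for Cenpa, -0.16 for Cenpf, -0.0245 for Spc25, -0.0411 for Ect2, -0.0022 for Cdc20 and -0.0148 for Cdca3. With 1 library left out Cenpf ranged from -0.0175 (without Mdm2 ASO replicate 6-7) to 0.383, and Ckap2 from -0.1334 to 0.1571 (without control ASO replicate 1). The difference for Ccnf was 0.0469 under quantile normalization and ranged from -0.2144 to 0.0869 with a library left out, above 0 without HFHC Mdm2 ASO replicate 10 or CDAHFD control ASO replicate 1. The cause was not tested.

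Replicate numbers are shared only across the diets. The deviations of same-numbered libraries correlated at -0.066 to 0.105 over 7 numbers, 1 of them over 0.1, so the numbers were not taken as pairs, and 4 of the 7 correlated best with their own number. Counting limits precision most where a gene has under 20 reads in a library, as for Bub1, Melk and Ttk. On CDAHFD this also holds for genes with large falls, among them Nuf2, Kif4, Tpx2 and Hmmr. Their fewest reads in a library there were 4, 3, 7 and 8.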
